A study of Mus musculus with 12 samples.

Results

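Olig1, Olig2, Sox10, Pdgfra and Cspg4 are genes by which oligodendrocyte precursors, the dividing cells that give rise to the myelinating oligodendrocytes of the brain, are recognised. The 5 genes were taken by symbol from a short list of such genes, with no measured value in the choice. They are 5 of the 48709 genes listed for each library, and 5 of 5 passed the filter on low counts that left 16511 genes to test. Cortical RNA of E15.5 mouse embryos, strain C57BL/6J, had been sequenced in 12 libraries, 4 from control embryos, 4 from a conditional knockout (cKO) of BAF155 and 4 labelled Pax6 cKO. BAF155, encoded by Smarcc1, belongs to the core of the chromatin remodelling complex BAF, and Pax6 is a transcription factor that cortical radial glia, the local stem cells, depend on. The labels give no Cre driver, no floxed allele and no control genotype, so the cells in which a gene was deleted, and what the controls carry, are not known here. Whether the replicates are different embryos is not in the labels either; the p-values therefore cover only the variation among these libraries, part or all of which may be technical.

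Oligodendrocyte precursors of the mouse forebrain arise in waves. The earliest come from ventral domains under the control of Sonic hedgehog and migrate into the cortex before birth, and a later wave comes from progenitors of the cortex itself. Olig2 and Olig1 are neighbouring genes for basic helix-loop-helix transcription factors: Olig2 acts early, in progenitors and in the choice of the lineage, and Olig1 acts mainly in maturation. Sox10 encodes an HMG-box factor of committed cells and acts downstream of Olig2. Pdgfra encodes the receptor for PDGF-A, the growth factor that drives precursors to divide and migrate, and Cspg4 encodes the proteoglycan NG2 on their surface. None of the 5 is exclusive to the lineage: Olig1 and Olig2 are used by ventral forebrain progenitors, Sox10 by neural crest and Schwann cells, Pdgfra by meningeal fibroblasts and Cspg4 by pericytes.

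On the mm10 build, with GENCODE M21 models, Olig2 (ENSMUSG00000039830) lies on chromosome 16 at 91225457 to 91228677, plus strand, and Olig1 (ENSMUSG00000046160), a gene of 1 exon, at 91269772 to 91271933 on the same strand, 41.1 kb further on. Sox10 (ENSMUSG00000033006) lies on chromosome 15 at 79154908 to 79165240, minus strand. Pdgfra (ENSMUSG00000029231) lies on chromosome 5 at 75152292 to 75198215, plus strand. Cspg4 (ENSMUSG00000032911) lies on chromosome 9 at 56865033 to 56899870, plus strand. The library kit did not mark strand, so overlapping genes matter: exons of Gm15966 overlap 157 bases of Olig1, and exons of Gm42802, Gm42803 and Mir7025 overlap 456, 166 and 30 bases of Pdgfra. Those 4 overlapping genes held at most 1 read in any library. No exon of another gene overlaps Olig2, Sox10 or Cspg4.

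Promoter sequences from RefSeq (build GRCm38.p6), from 250 bases before to 50 bases after the start, matched 3 of the 5 genes, Olig2, Pdgfra and Cspg4. Olig1 and Sox10 had no entry. All 3 found are shown, and the direction of their change played no part in the choice. Capitals mark matches, on either strand, to the E-box CANNTG bound by basic helix-loop-helix factors such as Olig2, to the TATA box TATAAA, to the CCAAT box CCAAT, written ATTGG on the reverse strand, and to the SOX motif ACAAAG. The stretches are chr16:91225300-91225599, chr5:75152001-75152300 and chr9:56864854-56865153, in that order and all on the plus strand.
Olig2: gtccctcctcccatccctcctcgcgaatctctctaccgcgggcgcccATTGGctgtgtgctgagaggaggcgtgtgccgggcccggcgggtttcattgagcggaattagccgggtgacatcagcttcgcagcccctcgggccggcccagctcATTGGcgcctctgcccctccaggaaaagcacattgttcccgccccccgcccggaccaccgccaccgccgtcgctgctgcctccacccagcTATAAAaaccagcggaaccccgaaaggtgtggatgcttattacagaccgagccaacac
Pdgfra: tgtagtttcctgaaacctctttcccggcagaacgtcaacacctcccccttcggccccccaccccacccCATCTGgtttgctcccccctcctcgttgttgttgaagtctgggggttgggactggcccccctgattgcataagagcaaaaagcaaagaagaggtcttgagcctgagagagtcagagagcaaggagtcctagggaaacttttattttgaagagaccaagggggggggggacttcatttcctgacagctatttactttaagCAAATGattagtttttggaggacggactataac
Cspg4: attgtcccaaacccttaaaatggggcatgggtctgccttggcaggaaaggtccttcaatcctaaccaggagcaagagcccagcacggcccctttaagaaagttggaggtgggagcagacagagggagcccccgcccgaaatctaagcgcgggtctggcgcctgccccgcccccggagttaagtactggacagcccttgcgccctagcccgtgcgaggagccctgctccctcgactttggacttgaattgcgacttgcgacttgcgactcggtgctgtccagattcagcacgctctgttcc

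The 3 promoters differed in composition. Olig2 had a GC content of 65% with 25 CpG sites, Cspg4 60% with 17 and Pdgfra 51% with 5, beside medians of 52.7% and 7 over 32851 mouse promoters. Distances here are to the RefSeq start, which is not the GENCODE start given above in any of the 3 genes. The Olig2 stretch held a match to the TATA box 8 bases before the RefSeq start, a motif found in 13.6% of all promoters. That match lies inside Olig2 as GENCODE places it, from 91225457. CCAAT boxes stood 203 and 98 bases before the RefSeq start, a motif found in 37.4%. The Pdgfra promoter held E-boxes CATCTG, 182 bases before the start, and CAAATG, 17 bases after it. An E-box stands in 72.3% of all promoters, and the Olig2 and Cspg4 stretches held none. The SOX motif, present in 18.7% of all promoters, was in none of the 3, and the Cspg4 stretch held none of the 4 motifs. A match of letters is no measurement of binding.

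Library depth was 15.2 to 32.05 M counted reads. The labelled tissue was met by high levels of cortical genes, such as the neuronal factor Neurod6, which stood at 1085 ± 107 CPM in control (counts per M reads, mean ± SD, n = 4). Smarcc1 was at 303 ± 68.7 CPM in control, against 127 ± 10.8 in the BAF155 cKO and, in the libraries labelled as Pax6 cKO, 186 ± 6.71 CPM. Pax6 went against its label, at 110 ± 19.1 CPM in control and 389 ± 8.74 CPM in the libraries labelled as Pax6 cKO, and was at 314 ± 40.3 CPM in the BAF155 cKO. By Xist and Y-linked transcripts the 4 BAF155 cKO libraries were female, the 4 labelled Pax6 cKO male, control replicates 1 and 2 male and control replicates 3 and 4 female. By the sequencing lanes in the deposited names, all controls were in lane 8, BAF155 cKO replicates 3 and 4 in lane 3 and the other 6 libraries in lane 1. In the comparisons with control, group and lane cannot be told apart, and between the cKOs, group and sex cannot. Each of the 5 genes is therefore also given against the 2 same-sex controls.

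Within the control cortex the 5 genes were expressed at modest levels. Levels of different genes are compared as CPM per kb of exonic length. Olig1 stood highest in control at 4.46 ± 0.955 CPM per kb and Olig2 next at 4.17 ± 1.07, followed by Pdgfra at 1.89 ± 0.447, Sox10 at 1.04 ± 0.216 and Cspg4 at 0.895 ± 0.0831 (mean ± SD, n = 4 each). The ranges of Olig1 and Olig2 overlapped, as did those of Sox10 and Cspg4, so the order within each pair does not hold against the spread of the libraries. By the control level per kb, Olig1 stood at percentile 47.5 of the tested genes and Cspg4, the lowest of the 5, at percentile 22.7. The order in the BAF155 cKO was Olig2 at 8.01 ± 1.36, Olig1 at 4.30 ± 0.930, Pdgfra at 2.90 ± 0.321, Cspg4 at 0.675 ± 0.0705 and Sox10 at 0.485 ± 0.133 CPM per kb. There Olig2 stood clear of the rest, Olig1 overlapped Pdgfra, and Cspg4 overlapped Sox10. In the libraries labelled as Pax6 cKO Olig2 was at 6.85 ± 0.587 CPM per kb and overlapped Olig1 at 6.35 ± 1.14. Pdgfra followed there at 2.01 ± 0.158, and Sox10 at 0.834 ± 0.152 overlapped Cspg4 at 0.662 ± 0.0465 CPM per kb.

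**Figure D1:**
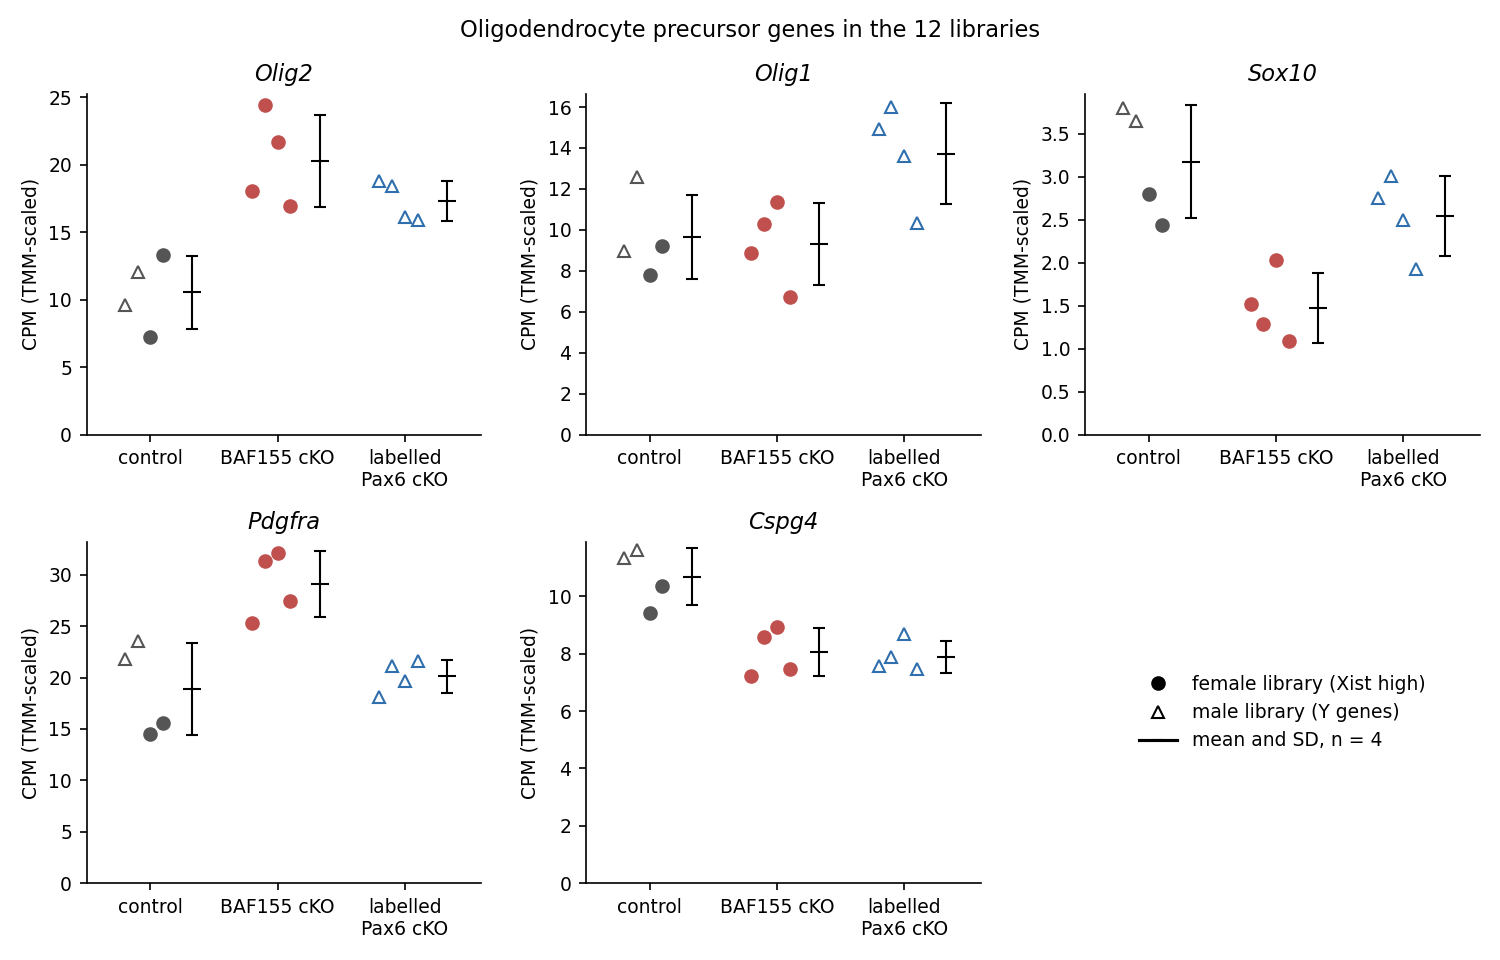
TMM-scaled CPM (y axis) of Olig2, Olig1, Sox10, Pdgfra and Cspg4 in each of the 12 libraries, by group (x axis), with replicates 1 to 4 from left to right, filled circles for female and open triangles for male libraries, and the mean with SD (n = 4) as a bar beside each group. Olig2 lay between 16.9 and 24.4 CPM in the BAF155 cKO, above every control, while Olig1 in the same libraries lay among the controls and Sox10 below them.

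In the BAF155 cKO the genes of the set went in different directions. Olig2 and Pdgfra rose, Sox10 and Cspg4 fell, and Olig1 did not pass the test. So 2 of the 5 were called higher, where 6.04% of all tested genes were, and 2 were called lower, where 7.56% were (13.6% in either direction, adjusted p under 0.05 in edgeR's quasi-likelihood test with Benjamini-Hochberg adjustment over the 16511 genes). For 4 of the 5 the 4 cKO libraries did not overlap the 4 controls, a separation found for 14.4% of tested genes. In the libraries labelled as Pax6 cKO, 2 of the 5 were called higher, Olig2 and Olig1, against 16.6% of tested genes, and 1 was called lower, Cspg4, against 18.9% (35.5% in either direction). There 2 of the 5, Olig2 and Cspg4, did not overlap the controls, against 35.6% of tested genes. Both comparisons use the same 4 controls. These are bulk libraries, in which fewer cells of a type and less RNA per cell cannot be told apart.

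Olig2, the factor that acts earliest of the 5, was read at 9.62, 12.1, 7.20 and 13.3 CPM in control replicates 1 to 4. It was at 18.1, 24.4, 21.7 and 16.9 CPM in replicates 1 to 4 of the BAF155 cKO, and at 18.8, 18.4, 16.2 and 15.9 CPM in replicates 1 to 4 labelled Pax6 cKO. Every library of either knockout lay above every control. The log2 fold change against control was 0.94 in the BAF155 cKO (SE 0.17, adjusted p = 0.00174), a rise of 1.93-fold. It was 0.72 in the libraries labelled as Pax6 cKO (SE 0.16, adjusted p = 0.00463), a rise of 1.64-fold. Between the knockouts the difference in log2 level was 0.23 (SE 0.16, adjusted p = 0.437) and their values overlapped. Olig2 was also called against the 2 same-sex controls, with a log2 fold change of 0.98 in the BAF155 cKO (adjusted p = 0.00525) and 0.68 in the libraries labelled as Pax6 cKO (adjusted p = 0.0470). It was called in the BAF155 cKO libraries of lane 1 alone, at 1.02 (adjusted p = 0.00839), and of lane 3 alone, at 0.87 (adjusted p = 0.0111).

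Olig1, its neighbour, did not follow Olig2 in the BAF155 cKO. Olig1 was read at 8.99, 12.6, 7.78 and 9.22 CPM in control replicates 1 to 4 and at 8.85, 10.3, 11.4 and 6.70 CPM in replicates 1 to 4 of the BAF155 cKO. These 2 groups lay on top of each other. In the replicates labelled as Pax6 cKO Olig1 was at 14.9, 16.0, 13.6 and 10.3 CPM, of which the fourth lay within the range of the controls. The log2 fold change was −0.05 in the BAF155 cKO (SE 0.18, adjusted p = 0.864). It was 0.51 in the libraries labelled as Pax6 cKO (SE 0.18, adjusted p = 0.0361), a rise of 1.43-fold. This rise was no longer called in 6 of 12 fits with 1 library left out: without control replicate 1, 3 or 4, or without replicate 1, 2 or 3 labelled Pax6 cKO, the log2 fold change was 0.42 to 0.51 (adjusted p from 0.0704 to 0.112). It was also not called against the 2 male controls, at 0.36 (adjusted p = 0.281). Between the knockouts the log2 difference for Olig1 was −0.56 (SE 0.18, adjusted p = 0.0882).

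The relation between the 2 neighbours could be read within each library, where the scaling of libraries cancels. The control libraries held 0.935, 1.04, 1.08 and 0.692 Olig1 reads per Olig2 read in replicates 1 to 4. The BAF155 cKO libraries held 0.490, 0.421, 0.523 and 0.396, and the libraries labelled as Pax6 cKO 0.795, 0.870, 0.843 and 0.649. The 4 BAF155 cKO values lay below the 8 others, while the libraries labelled as Pax6 cKO overlapped the controls. The mean ratio was 0.938 ± 0.175 in control, 0.458 ± 0.0592 in the BAF155 cKO and 0.789 ± 0.0984 in the libraries labelled as Pax6 cKO (SD, n = 4 each). The difference of log2 ratios between BAF155 cKO and control was −1.02, −0.93 with the 2 female controls alone, and −1.02 in either lane. This ratio and that of Sox10 to Olig2 were chosen after the values of the genes had been seen, so they are given without a test.

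Sox10 marks the step after Olig2 and was the lowest of the 5 in reads, with 17 to 115 per library. It was at 3.80, 3.65, 2.80 and 2.44 CPM in control replicates 1 to 4, at 1.51, 1.28, 2.03 and 1.09 CPM in replicates 1 to 4 of the BAF155 cKO and at 2.76, 3.01, 2.50 and 1.92 CPM in the replicates labelled as Pax6 cKO. All 4 BAF155 cKO values lay below all 4 controls, and the libraries labelled as Pax6 cKO overlapped both groups. The fewest reads were in BAF155 cKO replicate 4, where 17 reads gave 1.09 CPM with an exact Poisson 95% interval of 0.632 to 1.74, which covers counting error only. Sox10 fell by 1.12 on the log2 scale in the BAF155 cKO (SE 0.22, adjusted p = 0.00438), to 0.462 of the control level. In the libraries labelled as Pax6 cKO its log2 fold change of −0.32 did not pass the test (SE 0.21, adjusted p = 0.234). Between the knockouts it was −0.79 (SE 0.22, adjusted p = 0.0564). With DESeq2 in place of edgeR this last difference was called, at −0.79 (adjusted p = 0.0223), and without BAF155 cKO replicate 3 it was called at −0.95 (adjusted p = 0.0382). Against the 2 female controls the log2 fold change of Sox10 in the BAF155 cKO was −0.83 (adjusted p = 0.0226), and in the cKO libraries of lane 1 and of lane 3 it was −1.17 (adjusted p = 0.0215) and −1.04 (adjusted p = 0.0379).

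Set against Olig2, Sox10 separated all 3 groups. There were 0.183 to 0.395 Sox10 reads per Olig2 read in the controls, 0.0526 to 0.0936 in the BAF155 cKO and 0.121 to 0.163 in the libraries labelled as Pax6 cKO. The 3 ranges did not overlap. Between the BAF155 cKO and control that had to be so, since Olig2 lay above and Sox10 below every control there. The ratio was chosen after the values were seen, and how often other pairs of genes separate the 3 groups was not tested. The means were 0.317 ± 0.0993, 0.0736 ± 0.0186 and 0.146 ± 0.0185 (SD, n = 4 each).

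**Figure D2:**
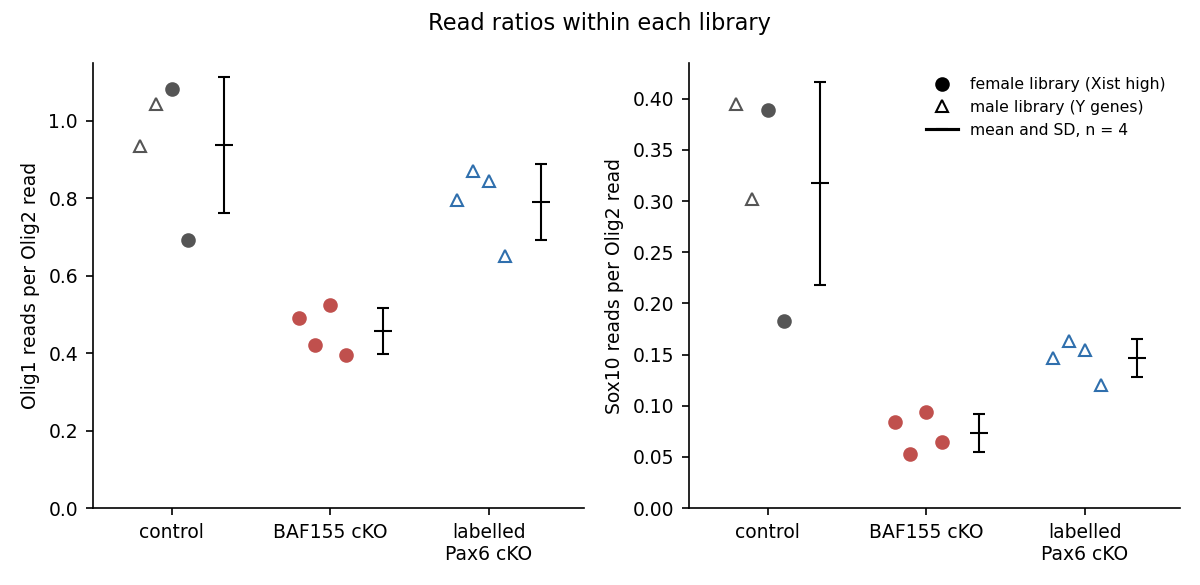
Reads of Olig1 (left) and of Sox10 (right) per read of Olig2 (y axes) in each library by group (x axis), with filled circles for female and open triangles for male libraries and the mean with SD (n = 4) beside each group. In the BAF155 cKO the Olig1 ratio lay between 0.396 and 0.523 and the Sox10 ratio between 0.0526 and 0.0936, lower in both plots than in any other library.

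Pdgfra, the receptor for PDGF-A, was read at 21.8, 23.6, 14.6 and 15.6 CPM in control replicates 1 to 4. It was at 25.4, 31.3, 32.2 and 27.5 CPM in replicates 1 to 4 of the BAF155 cKO and at 18.1, 21.2, 19.7 and 21.6 CPM in the replicates labelled as Pax6 cKO. The BAF155 cKO lay above both other groups, which overlapped. Among the controls the 2 female libraries were lower than the 2 male ones. Pdgfra rose in the BAF155 cKO by 0.62 on the log2 scale (SE 0.14, adjusted p = 0.0110), or 1.53-fold. Against the 2 female controls the log2 fold change was larger, 0.95 (SE 0.12, adjusted p = 0.000148). With the cKO libraries of lane 1 alone it was 0.60 and was not called (adjusted p = 0.0794), while those of lane 3 gave 0.65 (adjusted p = 0.0240). For the libraries labelled as Pax6 cKO it was 0.09 (SE 0.14, adjusted p = 0.657), and −0.18 against the 2 male controls (adjusted p = 0.348).

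Pdgfra was the member called between the knockouts, where it was higher in the BAF155 cKO by a log2 difference of 0.53 (SE 0.14, adjusted p = 0.0434) with no overlap. In that comparison 4.31% of tested genes were called, 2.3% higher and 2.01% lower in the BAF155 cKO, and 15.3% did not overlap. The call rests on a narrow margin. It was lost when any 1 of BAF155 cKO replicates 2, 3 and 4 or of the 4 replicates labelled as Pax6 cKO was left out, with log2 differences of 0.48 to 0.57 and adjusted p from 0.0510 to 0.120. The 2 groups also differ in sex, and Pdgfra differed between female and male controls, which differed in other genes too, as given below. The part of sex in the difference between the knockouts was not tested.

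Cspg4, the NG2 proteoglycan, had the smallest difference between the knockouts of the 5 genes. It was read at 11.3, 11.6, 9.43 and 10.4 CPM in control replicates 1 to 4, at 7.22, 8.60, 8.94 and 7.47 CPM in replicates 1 to 4 of the BAF155 cKO and at 7.56, 7.88, 8.69 and 7.47 CPM in the replicates labelled as Pax6 cKO. Every knockout library lay below every control, and the knockouts overlapped. Cspg4 fell by 0.41 on the log2 scale in the BAF155 cKO (SE 0.11, adjusted p = 0.0302) and by 0.44 in the libraries labelled as Pax6 cKO (SE 0.11, adjusted p = 0.00884). The difference between the knockouts was 0.03 (SE 0.12, adjusted p = 0.924). Against the 2 same-sex controls Cspg4 was called in the libraries labelled as Pax6 cKO at −0.54 (adjusted p = 0.0156) but not in the BAF155 cKO at −0.30 (adjusted p = 0.105). The BAF155 cKO call was also lost without BAF155 cKO replicate 1 or 4 or control replicate 2 or 4, at −0.42 to −0.36 (adjusted p from 0.0574 to 0.0974). In the BAF155 cKO libraries of lane 1 and of lane 3 alone the log2 fold change was −0.42 (adjusted p = 0.131) and −0.39 (adjusted p = 0.0875).

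**Figure D3:**
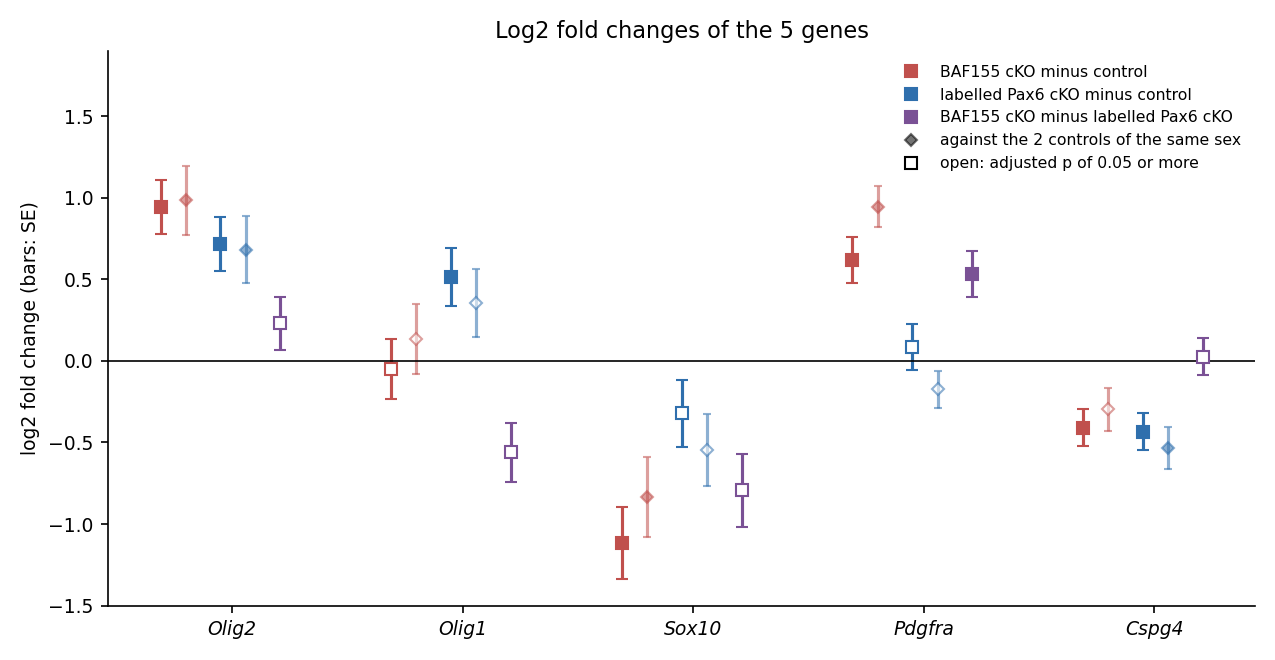
Log2 fold changes (y axis, bars: SE) of the 5 genes (x axis) in the BAF155 cKO against control (red squares), in the libraries labelled as Pax6 cKO against control (blue squares) and between the knockouts (purple squares), with small diamonds for the fits against the 2 same-sex controls and open symbols where the adjusted p was 0.05 or more. In the BAF155 cKO Olig2 stood at 0.94 and Sox10 at −1.12, while Olig1 lay at −0.05.

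With the same-sex controls 27.5% of tested genes were called in the BAF155 cKO and 10.7% in the libraries labelled as Pax6 cKO. In that fit 3 of the 5 were called in the BAF155 cKO, Olig2, Pdgfra and Sox10, and 2 in the libraries labelled as Pax6 cKO, Olig2 and Cspg4. The fold changes of Olig2 changed least with this choice, and Olig1 was called in neither. Sox10 and Cspg4, like Pdgfra, were higher in both male controls than in both female controls. The 2 pairs of controls differed in other genes too. The summed level of 8 genes of the dorsal telencephalon was 2731 and 2658 CPM in control replicates 1 and 2, the male ones. It was 3610 and 3179 CPM in control replicates 3 and 4, the female ones. Whether sex or another difference between these libraries lies behind this was not tested.

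Other genes of the lineage were taken from lists of known members. Among 20 other transcription factors of the lineage, 17 could be tested, and Nkx2-2, Nkx6-1 and Nkx6-2 were too low. The BAF155 cKO had 2 called higher and 4 lower, where 6.04% and 7.56% of all tested genes were. The median log2 fold change was −0.39 over the tested factors beside 0.01 for all tested genes. Control means of these factors ran from 0.522 to 1029 CPM. Bulk libraries do not show which cells the median comes from, and this was not tested. The genes of the dorsal telencephalon, given below, had a median of −0.59 in the same comparison. St18, a zinc finger factor, rose from 30.5 ± 9.08 to 71.8 ± 13.8 CPM (log2 fold change 1.24, SE 0.18, adjusted p = 0.00034). Tcf7l2, a Wnt effector of maturing oligodendrocytes, fell by 0.86 (SE 0.18, adjusted p = 0.00708), and Id2, an inhibitor of basic helix-loop-helix factors, fell by 0.39 (SE 0.09, adjusted p = 0.0105), both on the log2 scale. The count moved with the libraries used: it was 10 lower against the 2 female controls, 8 and 11 lower without BAF155 cKO replicate 2 and without control replicate 1, and none lower with the cKO libraries of lane 1 alone.

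In the libraries labelled as Pax6 cKO 2 of these 17 factors were called higher and 10 lower, where 16.6% and 18.9% of all tested genes were. The median log2 fold change was −0.49 beside 0.02 for all tested genes, and −0.93 for the dorsal telencephalon genes. Myt1, a zinc finger factor, rose by 0.28 on the log2 scale (SE 0.09, adjusted p = 0.0289). Tcf7l2 fell by 1.17 (SE 0.18, adjusted p = 0.000362) and Nfia, a factor of the onset of gliogenesis, by 1.01 (SE 0.20, adjusted p = 0.00195). Against the 2 male controls 2 were higher and 2 lower, and without control replicate 3 there were 1 higher and 6 lower. Exons of a gene on the other strand overlap Nfia.

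Of 20 other precursor markers 18 could be tested, and Neu4 and Susd5 were too low. The BAF155 cKO had 1 called higher and 4 lower (median −0.09), where 6.04% and 7.56% of all tested genes were. In the libraries labelled as Pax6 cKO 3 were higher and 4 lower (median −0.07). In that second comparison 35.5% of all tested genes were called, so its count of 7 of 18 is near that background. Sema5a, an axon guidance protein, fell in both, from 148 ± 30.0 CPM in control to 42.8 ± 4.34 CPM in the BAF155 cKO (log2 fold change −1.79, SE 0.13, adjusted p = 2.83e-07) and 35.1 ± 2.34 CPM in the libraries labelled as Pax6 cKO (−2.08, SE 0.13, adjusted p = 4.46e-08). Vcan, a chondroitin sulphate proteoglycan of the matrix, rose in both, by 0.35 (adjusted p = 0.0207) and 0.42 (adjusted p = 0.00317). C1ql1, a secreted C1q-like protein, fell by 0.96 in the BAF155 cKO (SE 0.25, adjusted p = 0.0233). Xylt1, an enzyme that starts proteoglycan chains, fell by 0.83 in the libraries labelled as Pax6 cKO (adjusted p = 3.97e-05), and Bcan, another matrix proteoglycan, rose there by 0.74 (adjusted p = 0.00232). The BAF155 cKO count is small and unstable, with 1 to 3 called in 7 of 12 fits with 1 library left out, those without BAF155 cKO replicate 4, control replicate 3 or 4, or any 1 of the 4 libraries labelled as Pax6 cKO.

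Of 18 growth factors, morphogens and receptors that act on precursors, all tested, 1 was called higher and 4 lower in the BAF155 cKO (median −0.05). In the libraries labelled as Pax6 cKO 2 were higher and 7 lower (median −0.25). Over all tested genes the shares called were 13.6% and 35.5%. The receptor Egfr rose in the BAF155 cKO from 7.66 ± 2.08 to 12.1 ± 1.64 CPM (log2 fold change 0.66, SE 0.17, adjusted p = 0.0182). Gli2, a transcription factor of the hedgehog pathway, fell in the BAF155 cKO by 0.94 (adjusted p = 0.00809) and in the libraries labelled as Pax6 cKO by 1.30 (adjusted p = 0.000428). Fgfr1, an FGF receptor whose exons another gene overlaps, fell by 0.59 (adjusted p = 0.00286) in the BAF155 cKO. The libraries labelled as Pax6 cKO showed further changes: the hedgehog co-receptor Boc fell by 1.17 (adjusted p = 4.38e-06), the chemokine receptor Cxcr4 rose by 0.64 (adjusted p = 0.00526) and the ligand Pdgfd rose by 0.78 (adjusted p = 0.0244). Erbb3, a neuregulin receptor of precursors and Schwann cells that was chosen after its values were seen, fell by 1.27 in the BAF155 cKO (SE 0.29, adjusted p = 0.0116), from 1.26 ± 0.215 to 0.523 ± 0.147 CPM. With the cKO libraries of lane 1 alone no gene of this list was called in the BAF155 cKO, and against the 2 male controls 5 were lower and none higher in the libraries labelled as Pax6 cKO.

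Of 13 genes of myelin and maturing oligodendrocytes 9 were tested, and Mobp, Cldn11, Enpp6 and Opalin were too low. Mog, a surface protein of myelin, rose in the BAF155 cKO from 7.85 ± 1.33 to 11.6 ± 1.79 CPM (log2 fold change 0.56, SE 0.16, adjusted p = 0.0307) and was the only one called there, in a comparison where 13.6% of all tested genes were called. It was not called in 4 fits with 1 library left out, those without BAF155 cKO replicate 1 or 4 or control replicate 3 or 4. Among the libraries labelled as Pax6 cKO Mog (0.52, adjusted p = 0.0172) and Ermn, a cytoskeletal protein of myelinating cells (1.27, adjusted p = 0.000134), were the 2 called, both higher, where 35.5% of all tested genes were called. Exons of Galnt5 overlap Ermn. That count of 2 was 1 without control replicate 3 or 4 or replicate 1 labelled as Pax6 cKO, and 1 against the 2 male controls, where Mog was not called (adjusted p = 0.207). Against the 2 female controls 2 were higher in the BAF155 cKO.

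The 5 genes are shared with other cell types, whose markers were read beside them. The summed level of 16 markers of ventral telencephalon and its GABAergic neurons, where Olig1 and Olig2 are also used, was 666 to 1011 CPM in control, against 1296 to 1498 in the BAF155 cKO and, in the libraries labelled as Pax6 cKO, 1565 to 1705 CPM. Of these 16, 9 rose in the BAF155 cKO (median log2 fold change 0.62) and 11 in the libraries labelled as Pax6 cKO (median 0.82), and none fell. Over all tested genes 6.04% and 16.6% rose. Dlx1, a homeobox factor whose exons Dlx1as overlaps, rose by 1.03 (adjusted p = 9.77e-06) and 1.42 (adjusted p = 2.29e-07). Gad1, the enzyme that makes GABA, rose by 1.19 (adjusted p = 0.000157) and 1.28 (adjusted p = 4.66e-05). Gsx2, a homeobox factor of ventral progenitors, rose by 1.06 in both (adjusted p = 0.00328 and 0.00156). Against the same-sex controls 8 and 9 of the 16 were higher. With the BAF155 cKO libraries of lane 1 alone 3 of the 16 were called. The part of these cells in the higher Olig2 was not tested.

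Markers of thalamus and hypothalamus, regions next to the cortex, were also read. In the BAF155 cKO 4 of 6 tested were called higher, where 6.04% of all tested genes were. In the libraries labelled as Pax6 cKO 2 of 6 were, where 16.6% of all tested genes were, and Rax was at 0 in all libraries. Their summed level was 16.8 to 39.8 CPM in control, against 49.6 to 67.9 in the BAF155 cKO and, in the libraries labelled as Pax6 cKO, 29.7 to 33.8 CPM. Most of that sum was 1 gene, Lhx9, which the rule does not name. Its means in these groups were 23.2, 44.5 and 24.8 CPM, so the sum is not a measure of the list as a whole. Sim1 was at 0.0486 CPM in control, against 2.55 in the BAF155 cKO and, in the libraries labelled as Pax6 cKO, 0.309 CPM. The count in the libraries labelled as Pax6 cKO was 1 without control replicate 1 or 3 and against the 2 male controls. It was 0 in the fit of the 8 libraries compared, where only 3 of the list passed the filter. Genes nearly absent from control could pass the filter of the main fit through the BAF155 cKO alone, so these counts depend on the filter. For the BAF155 cKO the count was 3 against the 2 female controls, and 2 with no filter or with a filter of 1 CPM in 4 libraries. The part of such tissue in the results was not tested. Of the 8 genes of the dorsal telencephalon 6 fell in the BAF155 cKO and 7 in the libraries labelled as Pax6 cKO, where 7.56% and 18.9% of all tested genes fell. Against the same-sex controls 8 and 5 were lower, and with the BAF155 cKO libraries of lane 1 alone 1 was.

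Pericytes use Cspg4, and of 12 pericyte markers none was called in the BAF155 cKO, where 13.6% of all tested genes were. In the libraries labelled as Pax6 cKO 3 rose and 1 fell, where 35.5% of all tested genes were called, so this count is near that background. These counts depended on the controls. Against the 2 female controls 2 were higher and 1 lower in the BAF155 cKO, and against the 2 male controls none was higher and 1 lower in the libraries labelled as Pax6 cKO. Without BAF155 cKO replicate 2 or control replicate 1, 1 was lower in the BAF155 cKO. Their summed level was 253 to 306 CPM in control, against 226 to 306 in the BAF155 cKO and, in the libraries labelled as Pax6 cKO, 289.7 to 317 CPM. Rgs5, the marker of highest CPM, was at 111 CPM in control and 126 CPM in the BAF155 cKO (log2 fold change 0.18, adjusted p = 0.35), and rose by 0.56 in the libraries labelled as Pax6 cKO (adjusted p = 0.00547). Higd1b rose there by 1.06 (adjusted p = 0.00846). Neither passed the test against the 2 male controls (adjusted p = 0.0896 and 0.0637), while both were called in the BAF155 cKO against the 2 female controls (adjusted p = 0.0172 and 0.00317). Notch3, whose exons Gm17276 overlaps and which radial glia also use, fell by 0.98 in the libraries labelled as Pax6 cKO (adjusted p = 5.85e-05).

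Meningeal fibroblasts use Pdgfra, and of 9 tested markers of 12 only Dcn, a matrix proteoglycan, was called in each comparison. Over all tested genes 13.6% and 35.5% were called. It rose from 2.81 ± 0.816 CPM in control to 6.05 ± 1.69 CPM in the BAF155 cKO (log2 fold change 1.09, SE 0.22, adjusted p = 0.00442) and 4.68 ± 0.322 CPM in the libraries labelled as Pax6 cKO (0.72, adjusted p = 0.0185). Against the same-sex controls Dcn was called in the BAF155 cKO (adjusted p = 0.00983) but not in the libraries labelled as Pax6 cKO (adjusted p = 0.120). With 1 library left out, none of the list was called in the libraries labelled as Pax6 cKO without control replicate 3 or replicate 3 labelled as Pax6 cKO, and 2 were without control replicate 1 or 4 or BAF155 cKO replicate 2. For the BAF155 cKO 2 were called without its replicate 2 or control replicate 4, with DESeq2, limma-voom, no TMM, no filter or the replicate block, and with the libraries of lane 3 alone. The summed level of the list was 21.1 to 24.4 CPM in control, against 22.1 to 29.3 in the BAF155 cKO and, in the libraries labelled as Pax6 cKO, 26.2 to 27.4 CPM. Its part in the level of Pdgfra was not tested.

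Neural crest and Schwann cells use Sox10. Of 10 markers 8 were too low to test, none above 17 reads in a library. Foxd3, a factor of the crest with at most 10 reads, was at 0 in the 4 BAF155 cKO libraries and at 0.225 ± 0.0904 CPM in control. It is not among the genes the rule names. Of the other genes too low to test, Dhh stood at 0.197 CPM in control and 0.204 CPM in the BAF155 cKO, and Egr2 at 0.197 and 0.154 CPM. Neither of the 2 tested, Ngfr and Prx, was called in the BAF155 cKO (log2 fold changes −0.35 and −0.20), but Ngfr was lower there against the 2 female controls (−0.66, adjusted p = 0.00912). Ngfr fell by 0.53 in the libraries labelled as Pax6 cKO (adjusted p = 0.0333), a call lost in 6 of 12 fits with 1 library left out, those without control replicate 3 or 4 or any 1 of the 4 libraries labelled as Pax6 cKO, and against the 2 male controls (adjusted p = 0.591). The summed level of the list was 14.5 to 22.6 CPM in control, against 13.6 to 16.8 in the BAF155 cKO and, in the libraries labelled as Pax6 cKO, 13.01 to 14.4 CPM. Most of that sum was Ngfr and Prx, with control means of 11.8 and 5.70 CPM, so it says little of the 8 other markers. The part of neural crest and Schwann cells in the lower Sox10 was not tested.

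Astrocytes, the other glia, share early factors with the lineage. Of 9 tested astrocyte genes of 10, 4 fell in the BAF155 cKO and none rose, and in the libraries labelled as Pax6 cKO 3 fell and 1 rose. Over all tested genes 13.6% and 35.5% were called. Against the 2 female controls 4 fell and 1 rose in the BAF155 cKO. Against the 2 male controls 3 fell and 0 rose in the libraries labelled as Pax6 cKO. Slc1a3, a glutamate transporter of astrocytes and radial glia, fell by 1.01 (adjusted p = 1.49e-06) and 0.46 (adjusted p = 0.00133). Aqp4, a water channel, fell by 1.33 in the BAF155 cKO (adjusted p = 0.000296) and was at −0.16 in the libraries labelled as Pax6 cKO (adjusted p = 0.47).

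**Figure D4:**
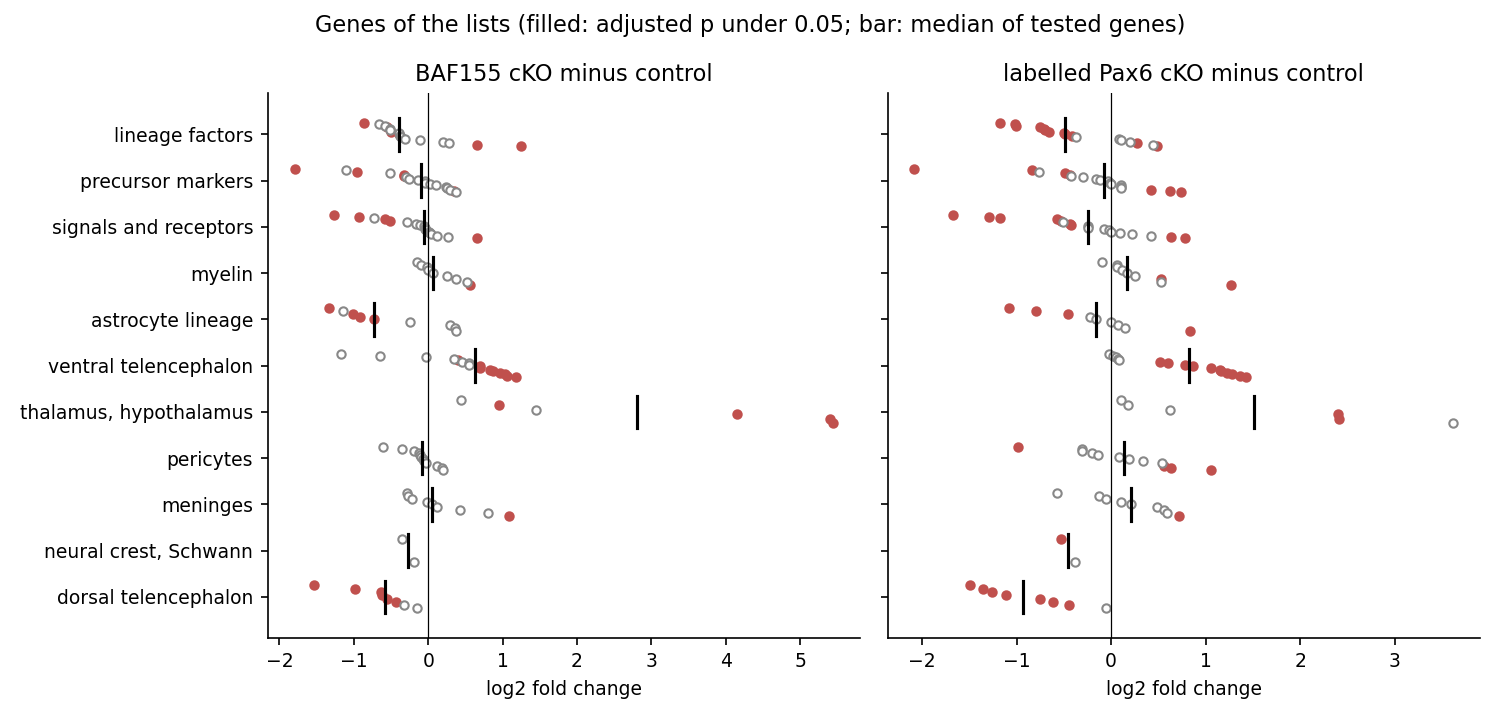
Log2 fold changes (x axis) of the tested genes of 11 lists (y axis) in the BAF155 cKO (left) and in the libraries labelled as Pax6 cKO (right) against control, filled where the adjusted p was under 0.05, with a black bar at the median of each list. The 2 panels have different x scales; the lineage factors have medians of −0.39 and −0.49 and the ventral telencephalon genes 0.62 and 0.82.

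Genes whose library patterns lay nearest to a member were found by the root-mean-square difference of centred log2(CPM + 0.5) values over the 12 libraries. Nearest to Olig2 were Edar at 0.20 and Cdh22 at 0.20, beside a median of 0.50 over all tested protein-coding genes. Nearest to Olig1 were Slc16a3 at 0.18, Cd53 at 0.19 and Arhgef37 at 0.20 (median 0.40). Arhgap29 at 0.19 and Ly75 at 0.20 lay nearest to Sox10 (median 0.47). Vwc2l, Ackr3 and Pcdhb11 lay nearest to Pdgfra, at 0.17, 0.17 and 0.18 (median 0.39). The closest fit was that of Arsb to Cspg4 at 0.06, followed by Lrrn3 and Lrrc8c at 0.10 each (median 0.28). These distances use the same libraries as the tests and are a description.

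The nearest tested protein-coding neighbours on the chromosome were read as well. Beyond Olig1, Ifnar2 was not called in either comparison (log2 fold changes 0.14 and 0.16), and on the far side of Olig2, Paxbp1 rose by 0.55 in the libraries labelled as Pax6 cKO (adjusted p = 0.0234) and was at 0.52 in the BAF155 cKO (adjusted p = 0.0594). Neither neighbour of Sox10 was called: Polr2f was at 0.02 and 0.21, and Pick1 at 0.14 and 0.12. Pdgfra lies between Gsx2, 74.4 kb away, which rose in both knockouts as given above, and Kit, 376.7 kb away, which fell by 0.72 in the libraries labelled as Pax6 cKO (adjusted p = 0.00182) and was at −0.42 in the BAF155 cKO (adjusted p = 0.0573). Both neighbours of Cspg4 fell with it: Lingo1 by 0.47 (adjusted p = 0.0300) and 0.38 (adjusted p = 0.0353), and Snx33 by 0.72 (adjusted p = 0.00947) and 0.58 (adjusted p = 0.0106), in the BAF155 cKO and the libraries labelled as Pax6 cKO.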

How the data were processed

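Values were raw read counts per gene, whole numbers that the authors deposited in 1 table per library, with no normalization and no header. Per the submitters' processing notes they used the mm10 build; for the aligner, the counter and their annotation, the sources used here give no name. Total RNA had been made into TruSeq v2 libraries, per the labels' protocols. Groups and replicate numbers came from the titles. GENCODE M21 gave symbols and exonic lengths and matched 48349 of 48709 identifiers; the other 360 held at most 0.0397% of a library's reads.

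The tests used edgeR 4.0.16 in R 4.3.3: filterByExpr, TMM scaling, and 1 quasi-likelihood fit of 12 libraries with 1 coefficient per group. Unless another fit is named, every adjusted p is from that fit's F-test with Benjamini-Hochberg adjustment over 16511 genes, called under 0.05. An SE is the absolute log2 fold change divided by the square root of F. The same-sex fit gave female and male controls separate coefficients. CPM values are TMM-scaled. The depth of 15.2 to 32.05 M reads gave 17 to 115 reads for Sox10, the lowest of the 5 genes.

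The 5 genes were given by symbol, with no measured value in the choice. The 11 lists of 149 genes and the alternatives were chosen with earlier results of these data known. The rule named the 5 genes, the 2 called genes of smallest adjusted p per list, direction and comparison (or the 2 of highest CPM), the 3 nearest library patterns and the chromosomal neighbours. Alternatives were RLE factors, no TMM, DESeq2 1.42.0, limma-voom (limma 3.58.1), no filter, at least 1 CPM in 4 libraries, only the 8 libraries compared, the replicate block, same-sex controls, single lanes and each library left out. Read ratios were added after the values were seen. Some genes that the rule names are left out of the text.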

Additional observations from a re-analysis of the deposited data

Results flagged for a closer look

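Pdgfra differed between the knockouts in a test of the difference itself: its log2 level was 0.53 higher in the BAF155 cKO than in the libraries labelled as Pax6 cKO (SE 0.14, adjusted p = 0.0434 in edgeR's quasi-likelihood test), with all 4 BAF155 cKO libraries above all 4 others. The BAF155 cKO libraries were female and those labelled Pax6 cKO male, so sex and genotype cannot be told apart in it.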

How the results depend on the processing

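Olig2 and, in the BAF155 cKO, Sox10 kept their direction and their calls against control under every alternative run. In the BAF155 cKO Cspg4 was not called without TMM (−0.36, adjusted p = 0.0534), with 8 libraries alone (−0.40), with same-sex controls (−0.30) or by lane (−0.42 in lane 1, −0.39 in lane 3), nor Pdgfra in lane 1 (0.60). Olig1 turned to 0.13 with same-sex controls and 0.0029 in lane 1 (adjusted p = 0.663 and 0.995). In the libraries labelled as Pax6 cKO, same-sex controls put Olig1 at 0.36 and Pdgfra at −0.18, neither called. Between the knockouts Pdgfra was not called without TMM (0.52) or in lane 1 (0.51) or lane 3 (0.58), while DESeq2 called Olig1 (−0.55) and Sox10 (−0.79), and no filter called Sox10 (−0.81). The cause was not tested.

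The 2246 genes called in the BAF155 cKO became 1035 with 8 libraries, 4534 with same-sex controls and 682 in lane 1; the 5866 called in the libraries labelled as Pax6 cKO became 1772 with same-sex controls; the 711 called between the knockouts became 1339 with DESeq2, 470 in lane 1 and 209 in lane 3. With 1 library left out these counts ran from 1001 to 4073, from 3825 to 6601 and from 307 to 900.

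With 1 library left out, Cspg4 ran from −0.46 to −0.36 and Olig1 from −0.15 to 0.10 in the BAF155 cKO, and Olig1 from 0.42 to 0.65 and Pdgfra from −0.020 to 0.19 in the libraries labelled as Pax6 cKO. Between the knockouts Pdgfra ran from 0.48 to 0.59, Sox10 from −0.95 to −0.69 and Cspg4 from −0.014 to 0.079.

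Same-numbered libraries did not deviate together in every pair: correlations of their deviations from group means ran from −0.209 to 0.360 over 12 pairs, and 4 of 12 were best with their own number, among them the 3 pairs of replicate 1 (0.117 to 0.360). The numbers were therefore not taken as a pairing. With the replicate number as a block, Pdgfra between the knockouts was at 0.53 (adjusted p = 0.0595) and Sox10 at −0.80 (adjusted p = 0.0473), and no other call of the 5 genes changed.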
